A study of Mus musculus with 4 samples.

Results

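The antioxidant and glutathione pathway genes were examined in mouse CD8 T cells, naive and memory. A member was any probe set with 1 annotated symbol of the Gst, Gpx, Prdx, Txn, Sod, Gcl, Glrx or Aldh families, the metallothioneins Mt1 and Mt2, or the genes Cat, Gsr, Gss, Nqo1, G6pdx and Cyba. The rule itself uses gene names and no measured value. It found 48 genes out of 6137 with a single symbol, read by 57 probe sets. Of these genes 36 lay on the A chip, 15 on the B chip and 3 on both. Gclm, Gsr and G6pdx had no probe set of their own symbol on either chip, and 2 A-chip probe sets with several symbols were not counted.

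The arrays were the A and B chips of an Affymetrix 11K mouse set, 1 of each for either population and 4 in all. Both populations carried the transgenic receptor of B6.2.16 mice, which recognises the male HY antigen, and all animals were female and lacked RAG1. T and B cells with other receptors need this recombinase to form. The naive population was taken from lymph nodes and was more than 85% pure by the labels. Memory cells began as splenocytes cultured with HY peptide for 4 days. They were then transferred into RAG1-deficient hosts and sorted with magnetic beads from spleen and lymph nodes after 200 days, at a purity above 80%. The sources used here do not give the animals' age or how many were pooled. Tissue, culture, transfer, time and sorting therefore changed together with the group and cannot be told apart. A chip held a single array of each group, which leaves no spread between samples and no test, and each difference below is between a pair of arrays. In such bulk samples fewer cells of a type and less RNA per cell cannot be told apart.

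Cells remove superoxide in steps. Superoxide dismutases turn it into hydrogen peroxide. Catalase splits the peroxide into water and oxygen, while glutathione peroxidases and peroxiredoxins reduce it to water. Glutathione and thioredoxin supply the electrons for that reduction and are themselves recharged by reductases with NADPH. Glutathione S-transferases join glutathione to reactive molecules, metallothioneins bind metals, and aldehyde dehydrogenases oxidise reactive aldehydes. Many of these genes are controlled by the transcription factor NRF2, which binds the antioxidant response element.

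Upstream sequence is shown for the 4 genes that could be compared between memory and naive cells and had a window in the RefSeq promoter table (GRCm38.p6), so that the element can be seen or missed beside the values. Each window holds the 250 bases before the start site, 5' to 3'. Capitals mark matches on either strand to the antioxidant response element, searched as TGACNNNGC, or to the AP-1 element, searched as TGANTCA.
Prdx1 (chr4:116685349-116685598, plus strand): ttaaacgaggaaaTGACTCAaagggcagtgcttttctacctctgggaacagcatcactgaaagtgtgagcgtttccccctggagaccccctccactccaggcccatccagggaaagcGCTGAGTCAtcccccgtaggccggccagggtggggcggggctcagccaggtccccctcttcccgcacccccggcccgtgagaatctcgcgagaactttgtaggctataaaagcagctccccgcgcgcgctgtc
Prdx2 (chr8:84969372-84969621, plus strand): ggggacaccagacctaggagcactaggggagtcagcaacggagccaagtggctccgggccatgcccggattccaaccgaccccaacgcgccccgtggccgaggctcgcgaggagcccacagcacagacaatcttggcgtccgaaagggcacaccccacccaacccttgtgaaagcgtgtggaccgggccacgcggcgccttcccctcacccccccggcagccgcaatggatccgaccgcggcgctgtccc
Sod2 (chr17:13007589-13007838, plus strand): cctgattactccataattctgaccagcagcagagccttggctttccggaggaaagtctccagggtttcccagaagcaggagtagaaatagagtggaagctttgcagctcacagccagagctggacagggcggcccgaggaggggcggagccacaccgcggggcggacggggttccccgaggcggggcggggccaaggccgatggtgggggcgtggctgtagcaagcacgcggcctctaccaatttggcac
Gpx1 (chr9:108338830-108339079, plus strand): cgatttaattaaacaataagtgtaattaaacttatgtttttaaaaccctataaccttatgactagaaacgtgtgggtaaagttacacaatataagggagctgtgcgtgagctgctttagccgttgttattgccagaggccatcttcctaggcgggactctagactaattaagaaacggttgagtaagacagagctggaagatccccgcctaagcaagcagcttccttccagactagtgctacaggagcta
Prdx1 held 1 antioxidant response element, read on the minus strand from 133 to 125 bases before the start. It overlapped 1 of the gene's 2 AP-1 matches, and the other lay from 237 to 231 bases before the start. The windows of Prdx2, Sod2 and Gpx1 held neither word. Of 47 windows of 38 member genes 7 held the antioxidant response element (14.9%), against 10.2% of all 32851 windows, and 7 held the AP-1 element (14.9%), against 6.75%. The element was found in windows of Prdx1, Sod1, Txnrd1, Mt2, Gstm5, Gsta3 and Aldh1a2. A match describes letters only and is no evidence of binding. Sequence outside the 250 bases was not searched, so a window without a match does not show that a gene lacks the element.

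The deposited intensities had negative values on every array, from 19.8% to 35.6% of gene probe sets. On the B chip values under a floor of 423 were treated as noise, the 95th percentile of the sizes of negative values on the noisier, naive array. The memory B array alone had a limit of 287. On the A chip the memory array had a limit of 184. The B arrays tracked each other (Spearman correlation 0.85 across 6540 probe sets, which are not independent). The A arrays did not (0.10 across 6529), and the naive A values of 398 genes on both chips correlated with the naive B values at 0.072, against 0.45 for memory. Genes on the A chip are therefore given by their memory level only. Of 6 T cell markers on the B chip 2 were above the floor on both arrays, Thy1 at 2848 in memory and 6184 in naive and Cd3d at 959 and 1115. The coreceptor chain Cd8a read 498 and 352, under the floor in naive. Cd3g (254 and 502) and Zap70 (221 and 424) were under it in memory, and Cd2 (238 and 153) was under it on both.

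On the B chip most of the antioxidant genes that could be measured lay within 2-fold between the arrays, and most of the set could not be measured. Of 15 member genes 5 were above the floor on 1 array or both, against 26.2% of all 1760 genes with a symbol. Of these 5, Sod2 alone passed 2-fold towards memory, 0 passed it towards naive, and the other 4 were under 2-fold or had only a bound. Among all 462 genes above the floor 8.87% passed 2-fold towards memory and 8.66% towards naive, so 1 gene of 5 cannot be set apart from that background. A call required a brighter array of at least 2 times the floor and a ratio of at least 2-fold, each value below the floor being replaced by the floor. The median log2 ratio of memory to naive was 0.55 over the 5 members and -0.12 over the 462 genes. Without the 2 members that had an array under the floor it was also 0.55 over 3 genes, against -0.12 over 316.

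**Figure D1:**
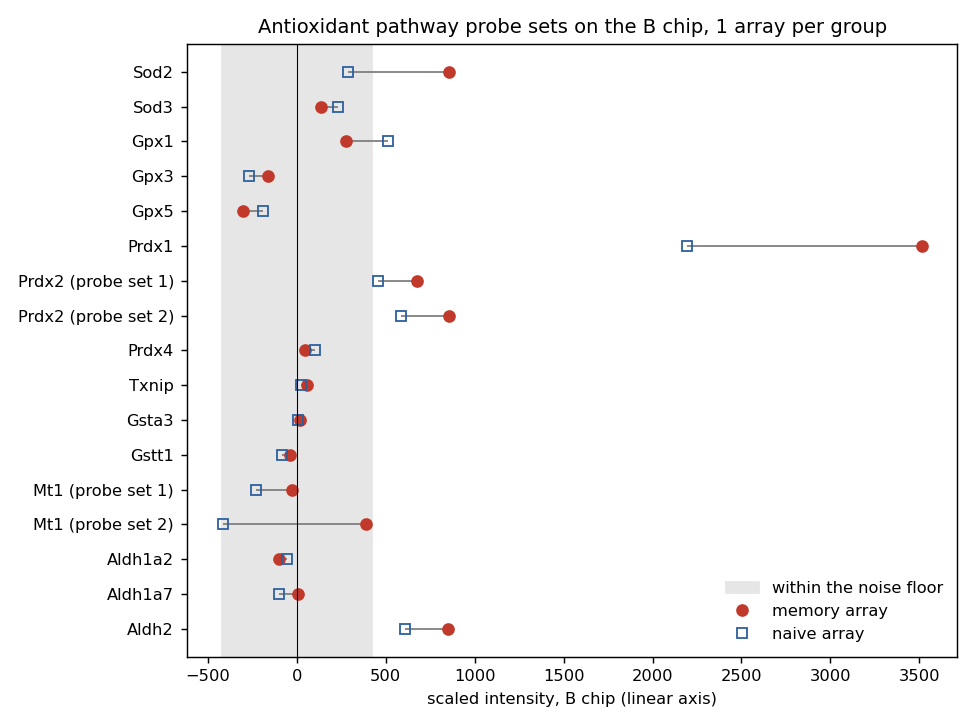
Scaled intensity of the 17 antioxidant pathway probe sets on the B chip (linear axis), with the memory array as filled circles, the naive array as open squares, 1 array each and no error bars. The grey band spans the noise floor of 423 on both sides of zero. Prdx1, Prdx2 and Aldh2 lie beyond it on both arrays, Sod2 in memory only and Gpx1 in naive only.

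The superoxide dismutases gave the 1 call of the set. Sod2, the manganese enzyme of mitochondria, read 858 on the memory array and 285 on the naive array. The naive value lay under the floor, so Sod2 was at least 2.03-fold higher in memory (log2 ratio at least 1.02). This call stood at the edge of both conditions, since 2 times the floor was 846. With the floor halved the naive value lay above it and the log2 ratio was 1.59, while with the floor doubled it was 0.020 and the call was lost. Sod1, the copper and zinc enzyme of the cytosol, was on the A chip alone, with a memory level of 521, 2.83 times that array's limit. Sod3, the secreted form, was under the limits wherever it was read, with 133 in memory and 234 in naive on the B chip and -97 on the memory A array.

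Of the enzymes that remove hydrogen peroxide, the peroxiredoxins were the ones measured in both populations. Prdx1, an abundant cytosolic peroxiredoxin, read 3518 in memory and 2196 in naive, a 1.60-fold difference (log2 ratio 0.68). Both values were far above the floor, the memory value at 8.32 times it. Prdx1 passed 2-fold under quantile normalization, with a log2 ratio of 1.35, and under the intensity-dependent (lowess) one, with 1.19. Prdx2, a cytosolic peroxiredoxin that is very abundant in red cells, was read by a pair of probe sets. One gave 858 in memory against 587 in naive and the other 673 against 457. The probe sets thus gave nearly equal ratios, 1.46-fold and 1.47-fold, both within 2-fold. Prdx4, the peroxiredoxin of the secretory pathway, read 44.7 and 99.7, both under the floor. The mitochondrial Prdx3 was on the A chip, where its memory level of 103 was under the limit.

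**Figure D2:**
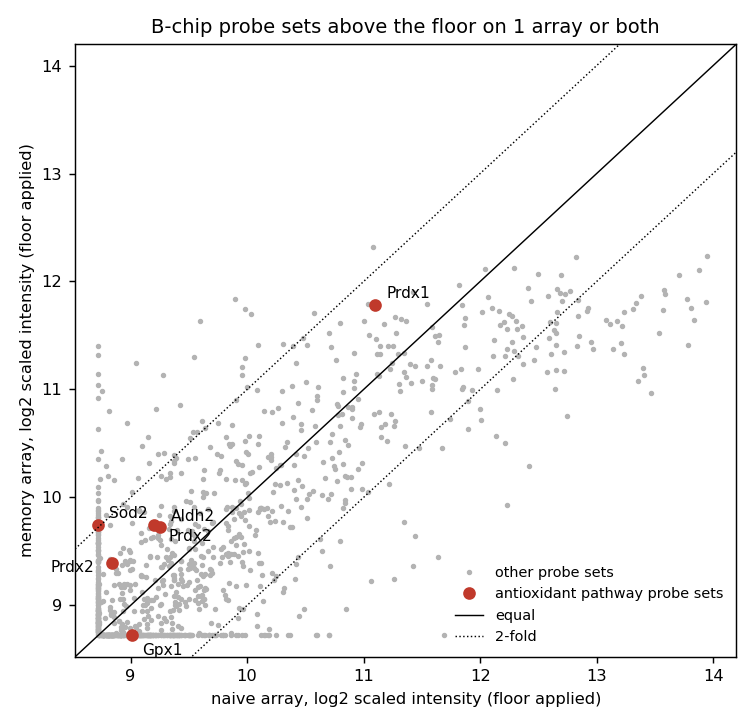
Log2 scaled intensity on the memory array against the naive array for the 1056 B-chip probe sets above the floor on 1 array or both (lower values drawn at the floor), with antioxidant pathway probe sets in red. The solid line marks equal values and the dotted lines 2-fold. Prdx1 lies above the line of equal values but inside 2-fold, and Sod2 sits on the left edge because its naive value is under the floor.

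Glutathione peroxidases and catalase could hardly be compared between the populations, and Gpx1 alone was above the floor on a B array. Gpx1, the main cytosolic glutathione peroxidase, read 278 in memory, under the floor, and 515 in naive. It was the 1 measured member with a higher naive value, by at least 1.22-fold (log2 ratio -0.28, a bound), and the brighter array was too dim for a call. With the floor halved the log2 ratio was -0.89. Gpx4, which reduces lipid peroxides in membranes, had a memory level of 808 on the A array, 4.39 times its limit. Catalase, Cat, the peroxisomal enzyme, had a memory level of 310 there. The plasma form Gpx3 read -161 and -268 on the B arrays and -31 on the memory A array, and the epididymal Gpx5 read -306 and -189, so neither was above background.

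The thioredoxin system was read almost wholly on the memory A array, where 4 of 8 genes were above the limit, against 29.6% of all 4775 A-chip genes. Txn1, the cytosolic thioredoxin that passes electrons to peroxiredoxins, had a level of 1223, 6.65 times the limit. Glrx, a glutaredoxin that removes glutathione from proteins, had 328, and Txnrd1, the reductase that recharges Txn1, had 228. Txnl4a, which shares the thioredoxin name and fold but works in the spliceosome, had 225 with 1 probe set and 39 with the other, so its detection rests on a single probe set. The mitochondrial Txn2 was not above the limit at -8, nor were Txnrd3 at 4, Txnl1 at 80 and Txndc16 at 95. Txnip, which binds and inhibits thioredoxin, was the 1 gene of the group on the B chip. It read 58.6 in memory and 21.2 in naive, under the floor on both, so a difference was not detectable.

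Genes of glutathione synthesis were read on the A chip, and so in memory only and without a comparison, as were most glutathione S-transferases. Gclc, the catalytic subunit of the rate-limiting ligase, had a level of 277 with 1 probe set and 98, under the limit, with the other. Gss, which completes glutathione, had 82 and was not above the limit. Of 9 glutathione S-transferases on the A chip 4 were above it, against 29.6% of all 4775 A-chip genes. The 4 were the pi class enzyme Gstp1 at 702, the mu class Gstm1 at 429, the zeta class Gstz1 at 269 and the omega class Gsto1 at 215. The other 5, Gstm2, Gstm3, Gstm5, Gsta4 and Gstt2, read from -39 to 120 over 6 probe sets. On the B chip Gsta3 read 16.9 and 4.03 and Gstt1 -40.7 and -83.6, neither above the floor.

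**Figure D3:**
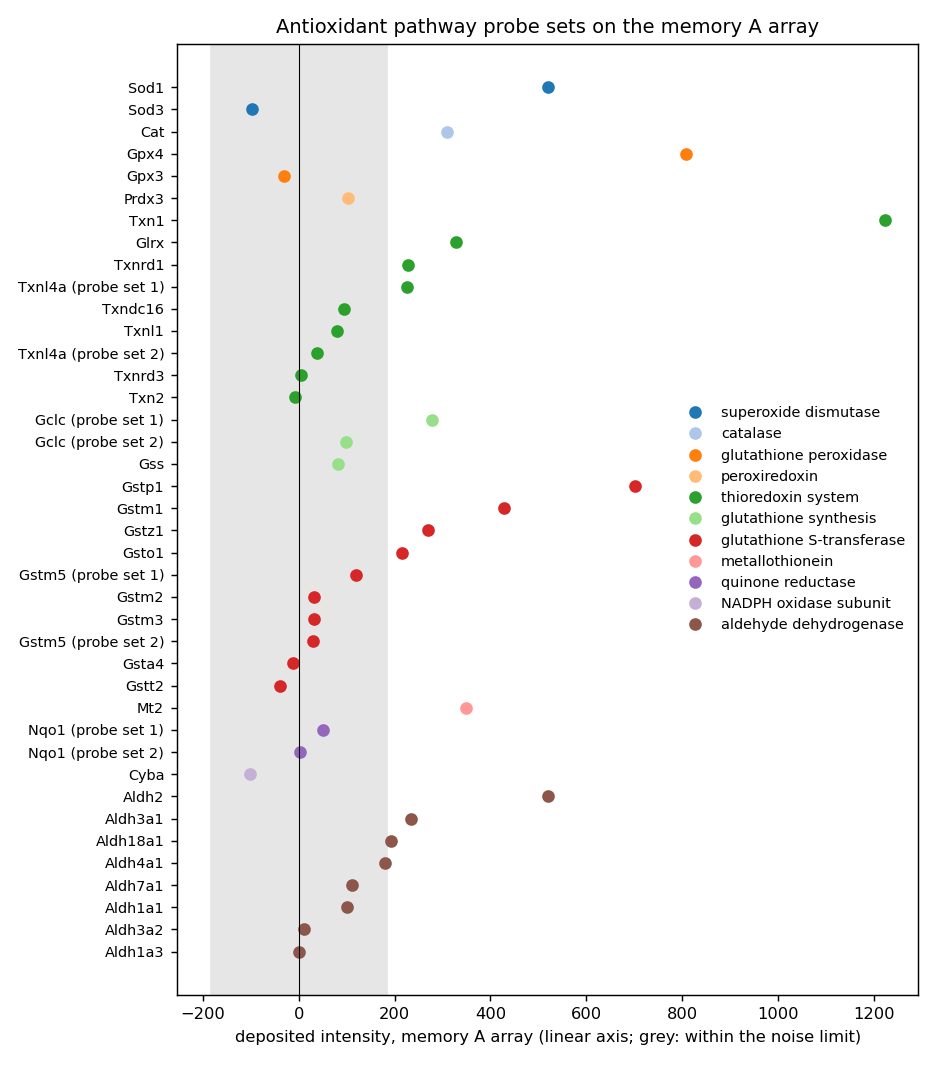
Deposited intensity on the memory A array (linear axis) for 40 antioxidant pathway probe sets, coloured by role, 1 array and no error bars. The grey band spans the noise limit of 184 on both sides of zero. Probe sets of 16 genes lie to the right of it, Txn1 (1223), Gpx4 (808) and Gstp1 (702) among them.

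Of the metallothioneins, small proteins that bind zinc and copper, Mt2 had a memory level of 350 on the A array. Mt1 was read by a pair of B-chip probe sets. One gave 388 in memory and -414 in naive, and the other -27.8 and -229. All 4 values lay within the floor, so no ratio is given. The value of 388 was above the memory array's own limit of 287. Nqo1, a quinone reductase and a classical NRF2 target, was not above the limit with either probe set, at 50 and 2. Cyba, the membrane subunit p22phox of the phagocyte oxidase that makes superoxide, read -101.

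Aldehyde dehydrogenases gave 1 gene measured in both populations. Aldh2, the mitochondrial enzyme, read 848 in memory and 609 in naive, a 1.39-fold difference (log2 ratio 0.48), within 2-fold. On the memory A array a second Aldh2 probe set also lay above its limit, at 520. There Aldh3a1 had 234 and Aldh18a1, a proline synthesis enzyme, 193, just above the limit, whereas Aldh4a1 was just under it at 180. Aldh1a1, Aldh1a3, Aldh3a2 and Aldh7a1 ranged from 1 to 111. The retinal dehydrogenase Aldh1a2 (-98.3 and -56.4) and Aldh1a7 (4.96 and -103) were under the floor on both B arrays.

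Altogether 16 of 36 member genes on the A chip were above the memory array's noise limit, against 29.6% of all A-chip genes. Counting either chip, 20 of the 48 genes were above a limit, a count for which no share over all genes was computed. Detection differed by the kind of probe set. Of 7 member probe sets with the class letter f on the A chip, whose probes match a family of related sequences, 6 were above the limit, against 58.4% of all such probe sets there. Of 26 with the letter s, which can match several similar transcripts, 10 were, against 30.0%, and of 7 with no letter 0 were, against 14.8%. On the B chip all probe sets that read Prdx1, Prdx2 and Aldh2 had the letter f, Sod2 had s and Gpx1 none. How much of the signal of the first 3 genes came from related sequences was not tested.

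Other genes of the pathway came from a companion list and were also mostly within 2-fold on the B chip. Of 12 with a probe set 6 were above the floor, against 26.2% of all B-chip genes with a symbol. Of these 6, 0 were 2-fold higher in memory and 1 was lower. Among all 462 genes above the floor 8.87% were higher and 8.66% lower, so 1 gene of 6 cannot be set apart from that background. The lower gene was Ftl1, the ferritin light chain, which stores iron (3573 against 10379, 2.90-fold). Its log2 ratio was -1.54. Under quantile normalization it was -0.29 and under lowess -0.14, and the call was lost. Slc3a2, a chain of the cystine importer, read 1741 and 1755, and Park7, an oxidative stress sensor, 797 and 752. Selenop, a selenium carrier with antioxidant activity, read 2475 against 1736. The oxidase GTPases Rac1 and Rac2 read 2206 against 1817 and 3779 against 6788. The Rac2 log2 ratio of -0.84 had the other sign under quantile normalization (0.47) and lowess (0.34). Cybb, the catalytic subunit of the oxidase, read 132 and -12.1, under the floor. On the memory A array 12 of 22 companion genes were above the limit, against 29.6% of all 4775 A-chip genes. The 12 included Hmox1, the haem-degrading enzyme, at 2228 and the ferritin heavy chain Fth1 at 2491. Also among them were Idh1 at 308 and Pgd at 307, which make NADPH. Taldo1 at 682 and Tkt at 610, listed with them, do not make it directly. Of the same list Rpia at 165, Idh2 at 163, Pgls at 135 and Me1 at 27 were not above the limit. The regulator Nfe2l2, which encodes NRF2, had 135 and was not above the limit.

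Markers of some other cell types differed between the arrays too. For the counts below, 26.2% of all 1760 B-chip genes with a symbol were above the floor. Of those 462 genes 8.87% were 2-fold higher in memory and 8.66% lower. Of 11 macrophage markers on the B chip 11 were above the floor, 6 were 2-fold higher in memory and 0 lower. The macrophage markers summed to 28398 in memory and 16409 in naive, and the receptor Csf1r read 2723 against 1090. The erythroid list summed to 6995 in memory and 18198 in naive, with 1 of 4 genes higher and 2 lower. T cell markers summed to 5019 and 8730, with Thy1 the 1 gene past 2-fold, lower in memory. Marker values and sums are given under the reported scaling alone. Over all genes that scaling gave 40 lower in memory, against 25 under quantile normalization and 17 under lowess. The genes higher in memory were 41, 52 and 49. How far Thy1 and the erythroid genes depend on the scaling was not tested. No gene of the granulocyte, B lineage or NK lists was called 2-fold different. The NK genes Klra4 (102 and 548) and Klra8 (279 and 516) were too dim for a call, under 2 times the floor on both arrays. The granulocyte sums were 9929 in memory and 10713 in naive, and those of the B lineage 1028 and 1905. Most of the B lineage sum came from Ighm, at 1007 and 1836, above the floor on both arrays. Cd79a and Pax5 were under the floor on both. On the memory A array Ms4a1 at 301 and Ighm at 297 were above the limit, and Cd79b, Cd22 and Blk were not. The NK genes summed to 381 and 1064, and both were under the floor in memory. Macrophages and red cells are themselves rich in antioxidant enzymes, and their part in the values above was not tested.

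**Figure D4:**
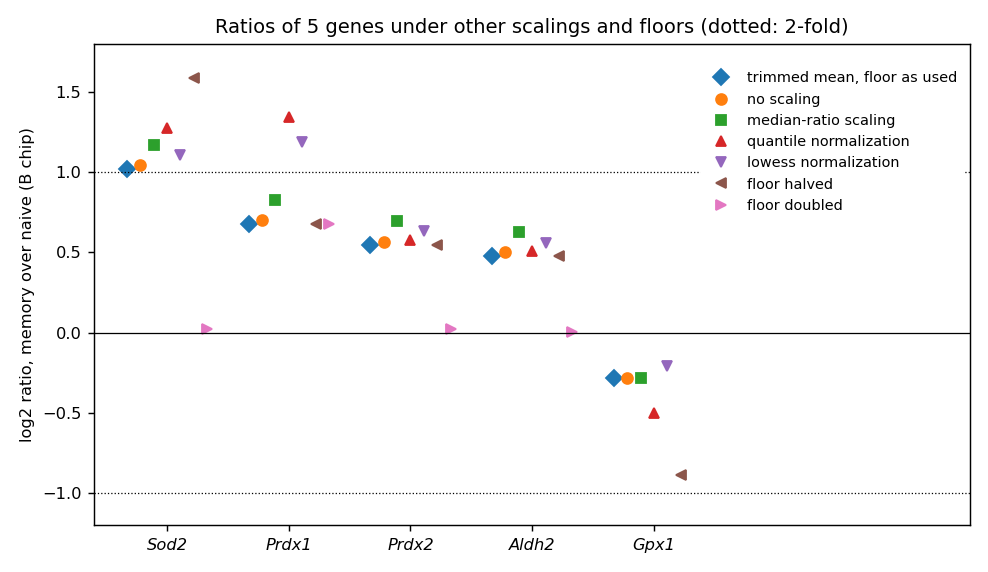
Log2 ratio of memory to naive on the B chip for the 5 genes above the floor, under the reported setting, 4 other scalings and 2 other floors, 1 array per group. Dotted lines mark 2-fold. Sod2 passes 2-fold except with the floor doubled, Prdx1 passes under quantile and lowess normalization and no other setting drawn, and Gpx1 is below zero wherever it is measured.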

How the data were processed

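RNA of naive and memory cells was hybridised to 2 chip types, 1 array per population and chip, per the labels. The deposited values are intensity values, 1 whole number per probe set with negative numbers, and they appeared to be scaled already, with a 2% trimmed mean of 150.2 to 150.4 on every array. The software, settings and genome build were not given in the sources used here.

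Symbols came from the platform annotation. All 57 member probe sets had an Entrez number in the RefSeq table of GRCm38.p6, and 0 symbols differed. After 55 control probe sets per chip were left out, the B arrays were multiplied by 0.993 (memory) and 1.01 (naive) to give equal trimmed means. The A values were used as deposited. The brightest probe set stood for a gene. The number of arrays limits the precision. Genes above a noise limit could be named. Members, lists and thresholds were chosen with earlier results of these data known. Alternatives were other scalings, floors, thresholds, probe set classes and summaries. The procedure was tested on simulated data. The planted changes were larger than 2-fold and lay in probe sets averaging at least 2 times the floor. A call at the edge, such as that of Sod2, was therefore not covered. Python 3.11.15, scipy 1.17.1 and statsmodels 0.14.6 (lowess, span 0.4) were used.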

Additional observations from a re-analysis of the deposited data

Results flagged for a closer look

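The naive column of the A chip was used in no comparison. In it 7 of 40 member probe sets were above that array's noise limit of 296, near the 18.5% of all 6529 gene probe sets there, and 3 of these were above the memory limit as well. The highest was the probe set of Gstm2, a mu class glutathione S-transferase, at 5563 against 32 on the memory A array, and the next highest member read 570. Because the naive A values hardly followed gene names, this value is not read as a level of Gstm2.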

How the results depend on the processing

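No paired analysis was possible because each chip held 1 array per group, so leaving out an array would have left no comparison. As reported 1 member was 2-fold higher on the B chip. The count was 2 with quantile normalization, with lowess normalization and at 1.5-fold, where Prdx1 joined Sod2. It was 0 with the floor doubled, at 3-fold, with probe sets without a class letter, with both arrays above the floor, and, chosen after seeing the data, with the brighter array at least 3 times the floor. No setting run gave a member 2-fold lower. The median of 0.55 became 0.66 with median-ratio scaling, 0.020 with the floor doubled and -0.28 without class letters, where 1 measured member, Gpx1, was left within the threshold. The companion count of 1 lower became 2 at 1.5-fold and 0 with quantile or lowess normalization, at 3-fold and without class letters. The 16 members above the limit on the memory A array became 22 with the limit halved and 6 with it doubled. Without class letters 7 genes were left, of which 0 were above the limit. The cause was not tested. Members under the floor have no order.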

Other observations

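The pair of probe sets for Mt1 gave unlike values, and how often such gaps occur within the floor was not counted. The family probe set read 388 in memory and -414 in naive, a gap of 802 intensity units, wider than the gap of 572 that gave the call of Sod2, yet both values lay inside the noise floor. The Mt1 probe set without a class letter read -27.8 and -229. With the floor halved Mt1 was measured in memory and its log2 ratio was at least 0.88, a bound that does not reach the 2-fold call.

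Several genes that are widely expressed were near zero on these arrays. The mitochondrial Txn2 read -8 and the oxidase subunit Cyba -101 on the memory A array. Of 10 macrophage markers on the same array 7 were above the limit, against 29.6% of all A-chip genes. Lyz2 read 2007 and C1qb 1921, whereas Mpeg1 (96), Marco (103) and Fcgr1 (113) were not above it. On the B chip 5 of 17 member probe sets were below zero in memory and 7 in naive. A value under the noise limit therefore gives no evidence that a gene was silent.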
